A study of Mus musculus with 8 samples.

Results

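The Serpina3 cluster of the mouse is a row of serine protease inhibitor genes on chromosome 12, and 8 of its copies are described here: Serpina3n, Serpina3e-ps, Serpina3c, Serpina3f, Serpina3g, Serpina3h, Serpina3i and Serpina3m. They were taken by name from a total of 55358 genes, as neighbouring copies among which Serpina3n and Serpina3e-ps had already been seen to differ with interleukin 6 (IL-6) in wild-type cells. Values of that contrast therefore describe the copies and carry no test. The cells were mouse embryonic fibroblasts, a culture of connective-tissue cells from embryos, whose RNA was sequenced in 4 groups of 2 libraries each: Arid5a-/- cells (KO) given 100 ng/ml IL-6 for 24 h, KO cells kept 24 h without it, wild-type (WT) cells given the same IL-6 for 24 h, and WT cells without it. Arid5a encodes a protein that binds inflammatory mRNAs and protects them from decay, and the series asked which non-coding RNAs follow IL-6 and Arid5a. The deleted part of Arid5a and the mouse strain are not given in the labels, and neither is whether the 2 libraries of a group are separate cultures. P-values therefore measure only how far these libraries spread, and that spread may be technical.

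Serpins trap proteases with a bait. An exposed stretch near the end of the protein, the reactive centre loop, is cut by the protease, the loop then folds into the body of the serpin through its hinge, and the protease is left bound and distorted. Humans have a single SERPINA3 gene, encoding the acute-phase plasma protein alpha-1-antichymotrypsin, made mainly in liver and raised in inflammation; in the mouse this gene has been copied many times, and the loop differs most between copies. Serpina3n encodes a secreted inhibitor known to act on granzyme B and cathepsin G, Serpina3g (also called Spi2A) an inhibitor inside the cell that acts on lysosomal cathepsins, and Serpina3c is known as a kallikrein-binding protein.

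The annotation (GENCODE M21, build GRCm38) names 14 Serpina3 genes, of which 12 lie in the 267.9 kb that the 8 copies span, chr12:104146382-104414329. Serpina3c and Serpina3e-ps lie on the minus strand and the other 6 copies on the plus strand, in the order Serpina3c, Serpina3e-ps, Serpina3f, Serpina3g, Serpina3h, Serpina3i, Serpina3m and, at the far end, Serpina3n. Serpina3n has 5 exons (chr12:104406729-104414329). Serpina3e-ps has 4 exons (chr12:104189517-104192926) and is annotated as an unprocessed pseudogene, and Serpina3h (chr12:104247905-104253669) as a transcribed one. Serpina3m is drawn by the annotation from the same first base as the neighbouring Serpina3k, at 104338486.

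The copies differ in their bait. The 63 bases that correspond to the reactive centre loop are printed below from the GENCODE transcripts, 5′ to 3′ on the strand of the gene, because they show how the copies differ where a serpin meets its protease. The first 27 bases are the hinge, and capitals mark bases that differ from Serpina3n at the same position of an alignment without gaps, so that any insertion or deletion would raise the count.
Serpina3n: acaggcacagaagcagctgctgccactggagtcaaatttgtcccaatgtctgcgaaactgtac
Serpina3e-ps: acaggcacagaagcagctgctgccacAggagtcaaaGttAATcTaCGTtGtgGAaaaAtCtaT
Serpina3c: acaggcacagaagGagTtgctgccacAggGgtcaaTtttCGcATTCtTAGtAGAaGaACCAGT
Serpina3f: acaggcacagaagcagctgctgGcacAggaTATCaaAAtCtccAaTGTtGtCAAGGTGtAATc
Serpina3g: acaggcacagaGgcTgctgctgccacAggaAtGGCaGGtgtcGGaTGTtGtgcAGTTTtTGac
Serpina3h: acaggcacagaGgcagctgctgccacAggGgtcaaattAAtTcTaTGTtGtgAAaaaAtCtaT
Serpina3i: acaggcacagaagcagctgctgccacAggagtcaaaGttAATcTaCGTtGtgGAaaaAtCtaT
Serpina3m: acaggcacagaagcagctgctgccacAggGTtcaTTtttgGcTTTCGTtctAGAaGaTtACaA
In the hinge the copies differed from Serpina3n at 1 to 3 of the 27 bases. In the 36 bases after it they differed at 14 (Serpina3e-ps, Serpina3h and Serpina3i) to 22 bases (Serpina3f), with 19 in Serpina3g. Serpina3e-ps and Serpina3i had the same 63 bases. The Serpina3n stretch lies at chr12:104413445-104413507, that of Serpina3g at chr12:104241069-104241131 and that of Serpina3e-ps at chr12:104189616-104189678 on the minus strand.

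The copies were called near-identical when they were chosen, and over whole transcripts the sequences went against that name. Between the longest transcripts of the 28 pairs, identity over aligned bases was 81.6% (Serpina3i and Serpina3m) to 93.6% (Serpina3g and Serpina3h), with a median of 85.3%. Serpina3n and Serpina3e-ps were 85.7% identical. The length of the reads is not given in the sources used here, so the share of each transcript that a read could not place was counted for 3 lengths. Of all stretches of 100 bases in Serpina3n, 0.204% also occurred in a transcript of another gene, and in Serpina3e-ps 5.05% did. In the longest transcripts of Serpina3f, Serpina3g, Serpina3h and Serpina3i this share was 3.58, 4.64, 4.21 and 2.33%. Serpina3n and Serpina3e-ps had 4 stretches of 100 bases in common. Stretches of 50 bases were shared more, at 6.9% in Serpina3n and 21.6% in Serpina3e-ps, and at 41.1% and 44.2% in the short transcripts Serpina3g-203 and Serpina3i-202. Of stretches of 150 bases none was shared by these copies, except 0.331% in Serpina3m. Every shared stretch was shared with another Serpina3 gene. How fragments that fit several copies were divided is not given in the sources used here, so the split among copies is uncertain to that extent. The sum of the 8 copies is less open to it but not free of it, since transcripts differ in length and some stretches are shared with Serpina3 genes outside the sum. The largest such share was that of Serpina3m with Serpina3k, 16% of stretches of 50 bases and 6.09% of stretches of 100 bases in Serpina3m-202.

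**Figure D1:**
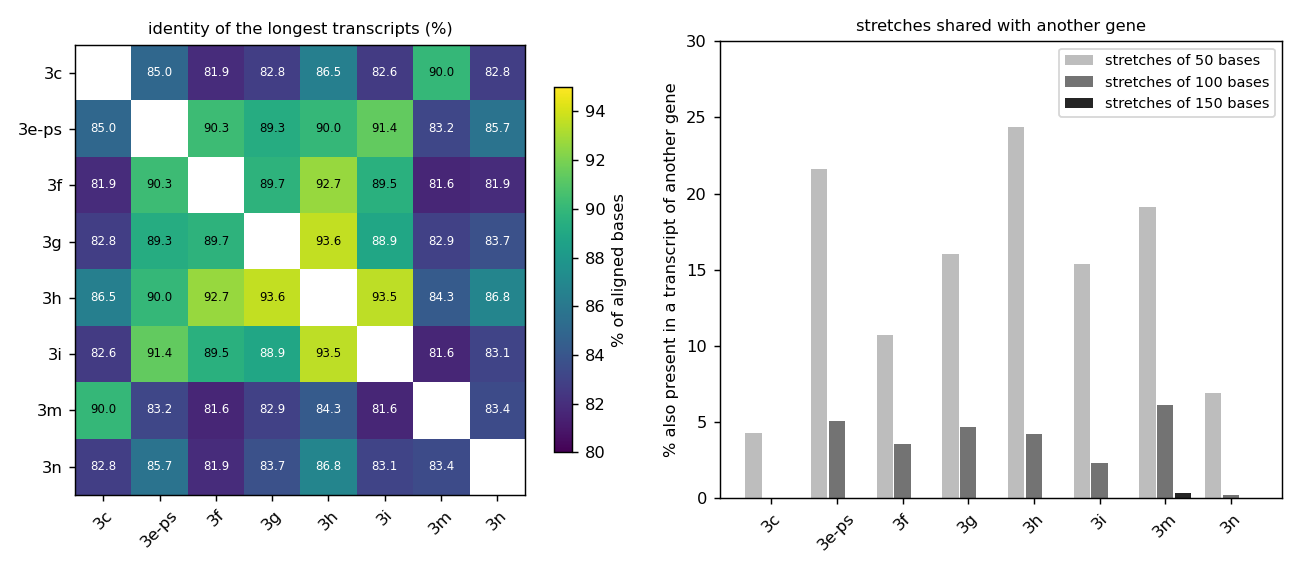
Left, percent identity of aligned bases between the longest transcripts of each pair of the 8 copies (colour scale 80 to 95%). Right, percent of stretches of 50, 100 and 150 bases in each longest transcript that also occur in a transcript of another gene. The closest pair is Serpina3g and Serpina3h at 93.6%, and Serpina3n shares 0.204% of its stretches of 100 bases.

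The data were FPKM values (fragments per kilobase of transcript, scaled to library size) of 142869 transcripts in each library, which were summed to genes. Depth was fitted from the steps between low values at 36.5 to 46.2 M fragments, with 12570 to 12699 genes at 1 FPKM or more in each library. Fibroblast markers summed to 4099 to 4336 FPKM in KO libraries and 3261 to 3824 FPKM in WT libraries, and the markers went both ways. Col1a1, Col3a1 and Dcn were higher in every KO library than in any WT library, while Vim (1021 to 1088 FPKM in KO, 1746 to 2288 in WT), Pdgfra (7.62 to 8.85, against 33.1 to 52.4), Pdgfrb (6.97 to 7.4, against 48.1 to 50.3) and Thy1 (0.414 to 0.919, against 2.61 to 3.49) were lower. Arid5a was at 8.47 and 8.15 FPKM in KO with IL-6, 5.51 and 6.85 in KO without IL-6, 30.9 and 31 in WT with IL-6, and 18.7 and 15.9 in WT without IL-6. KO libraries thus kept Arid5a RNA, at a level lower than in WT (limma, adjusted p = 2.67e-06 with IL-6 and 1.32e-05 without). Levels below are FPKM, and differences are on the log2(FPKM + 1) scale ± SE, which understates changes of low genes.

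As a whole the cluster was almost silent in KO cells. Its sum was higher with IL-6 in both genotypes, but in WT the groups overlapped once Serpina3n was left out. The 8 copies summed to 4 and 4.03 FPKM in KO with IL-6, 2.6 and 2.75 in KO without IL-6, 154 and 138 in WT with IL-6, and 121 and 132 in WT without IL-6. KO means were 2.75% of the WT mean with IL-6 and 2.11% without it. The sum with IL-6 was 1.5 times that without it in KO (4.02 ± 0.0215 against 2.67 ± 0.104 FPKM, SD, n = 2) and 1.15 times in WT (146 ± 11.1 against 127 ± 7.6). On the log2 scale these IL-6 differences were 0.45 in KO and 0.20 in WT. The lowest sum with IL-6 lay above the highest without it in both. Among all genes tested, 19.6% lay above in this way in KO and 27.5% in WT. Nothing is read from this order in WT, since Serpina3n had already been seen to differ in that contrast. Without Serpina3n the copies summed to 3.87 and 3.87 FPKM in KO with IL-6, 2.47 and 2.67 in KO without IL-6, 128 and 115 in WT with IL-6, and 118 and 129 in WT without IL-6, so that the WT groups overlapped. This remainder holds Serpina3e-ps, which was lower in WT with IL-6. Without both genes the WT sums were 127 and 114 FPKM with IL-6 and 107 and 116 FPKM without it, groups that overlapped too. Most of the KO sum was Serpina3g, whose IL-6 difference in KO did not pass (limma, adjusted p = 0.279). Leaving out the first or the second WT library with IL-6 gave 0.12 or 0.28 for the whole WT sum in place of 0.20. The sum is a score over chosen copies and was not tested. Because these are bulk samples, fewer cells that express a gene and less RNA per cell cannot be told apart.

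**Figure D2:**
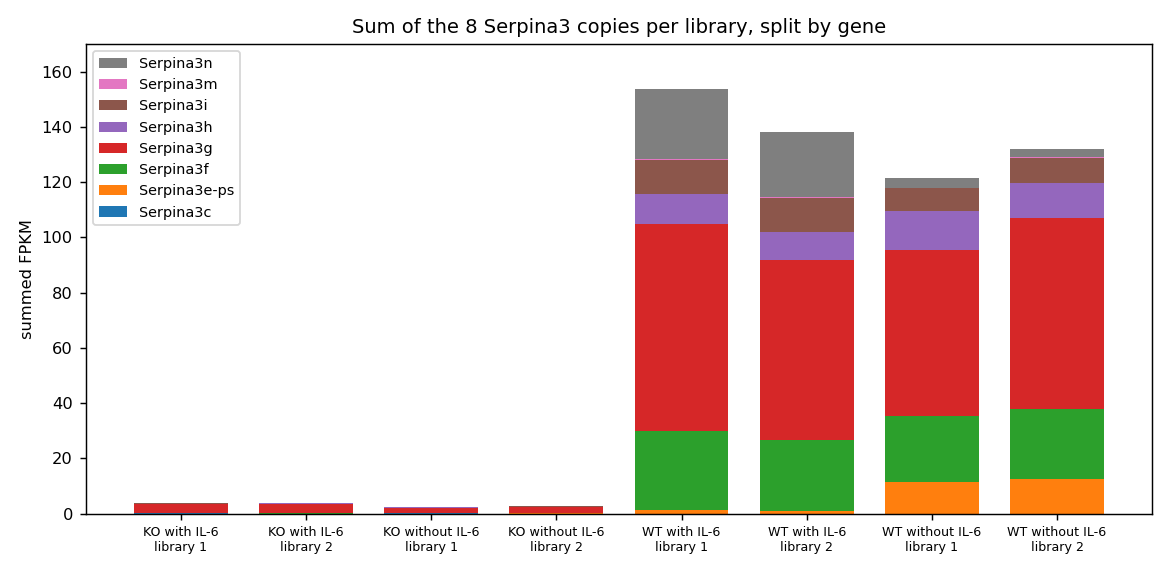
Summed FPKM of the 8 Serpina3 copies in each of the 8 libraries, KO left and WT right, with colours for the genes. KO libraries hold 2.6 to 4.03 FPKM, of which Serpina3g is 75.7 to 81.8%, and in WT libraries Serpina3n takes a larger part with IL-6 and Serpina3e-ps a larger part without it.

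Within the WT sum the copies went different ways with IL-6. Serpina3n, at the far end of the row, was the copy with the largest difference upwards. It was at 25.4 and 23.3 FPKM in WT with IL-6 and at 3.35 and 3.19 FPKM in WT without IL-6, a ratio of 7.45 between the means (log2 difference 2.57 ± 0.08). Serpina3e-ps, the pseudogene, was the copy with the largest difference downwards. It was at 1.3 and 1.07 FPKM in WT with IL-6 and at 11.4 and 12.7 FPKM in WT without IL-6, a ratio of 0.0986 (-2.58 ± 0.10). In fragments these values stand for about 1860 and 1724 of Serpina3n with IL-6 and 252 and 257 without, and about 54 and 44 of Serpina3e-ps with IL-6 and 476 and 569 without. The libraries with and without IL-6 were well apart for both genes. Of the stretches of 50 bases in Serpina3e-ps, 54 (4.58%) also occur in Serpina3n. More occur in Serpina3g (104, 8.82%) and in Serpina3f and Serpina3i (94 each, 7.97%). Serpina3n and Serpina3e-ps together came to 26.7 and 24.3 FPKM in WT with IL-6 and 14.7 and 15.9 FPKM without it. Their transcripts differ in length (2064 and 1228 bases), so this sum cannot show how fragments were divided between them. That division was not tested.

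The 4 copies in the middle of the row held most of the cluster's RNA and differed less. Serpina3g, the intracellular inhibitor, was the highest copy in every library. It was at 74.8 and 65.2 FPKM in WT with IL-6 and at 60.2 and 68.9 FPKM in WT without IL-6 (0.12 ± 0.09), and these groups overlapped. Serpina3f was at 28.6 and 25.4 FPKM in WT with IL-6 and at 23.9 and 25.3 FPKM without it (0.13 ± 0.09), groups that met without overlapping. Serpina3i was higher with IL-6, at 12.1 and 12.3 FPKM against 8.33 and 9.1 FPKM (0.45 ± 0.09). Serpina3h, the transcribed pseudogene between Serpina3g and Serpina3i, was lower, at 11 and 10.4 FPKM with IL-6 against 14.1 and 12.8 FPKM without it (-0.30 ± 0.08). Serpina3m was at 0.514 and 0.371 FPKM in WT with IL-6 and 0.0999 and 0.0778 FPKM in WT without it, or about 30 and 22 fragments against 5.9 and 4.9. Serpina3c was at 0.0624 and 0.0614 FPKM in WT with IL-6 and at 0 and 0.0453 FPKM without it, or at most about 4.9 fragments in any WT library. These last copies did not reach 1 FPKM in 2 libraries, the limit for testing, and the other 6 did.

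Of the 6 copies above that limit, the WT libraries with IL-6 lay above both without it for Serpina3n, Serpina3f and Serpina3i, and below both for Serpina3e-ps and Serpina3h. Among all 13693 genes tested, 27.5% lay above and 28.8% below in this way, and nothing is read from the count since the copies were chosen on this contrast. In the limma fit IL-6 changed 15.7% of all genes in WT cells, 1136 higher and 1014 lower; the share of these calls that were higher was 52.8%, and 34.7% when each library was scaled to the same total.

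The order of the copies within WT cells differed with IL-6 at the places of Serpina3n, Serpina3e-ps, Serpina3h and Serpina3i. FPKM are per length, so levels can be set beside one another. With IL-6 the order of the means was Serpina3g, Serpina3f, Serpina3n, Serpina3i, Serpina3h, Serpina3e-ps, Serpina3m and Serpina3c; Serpina3f and Serpina3n met at 25.4 FPKM. Without IL-6 it was Serpina3g, Serpina3f, Serpina3h, Serpina3e-ps, Serpina3i, Serpina3n, Serpina3m and Serpina3c; Serpina3h (12.8 to 14.1 FPKM) and Serpina3e-ps (11.4 to 12.7 FPKM) lay next to each other. Serpina3n made up 16.5 and 16.9% of the cluster sum in WT with IL-6 and 2.76 and 2.41% in WT without it, and Serpina3e-ps 0.848 and 0.775% with IL-6 and 9.37 and 9.61% without it. The share of Serpina3g was 48.6 and 47.2% with IL-6 and 49.6 and 52.2% without it.

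**Figure D3:**
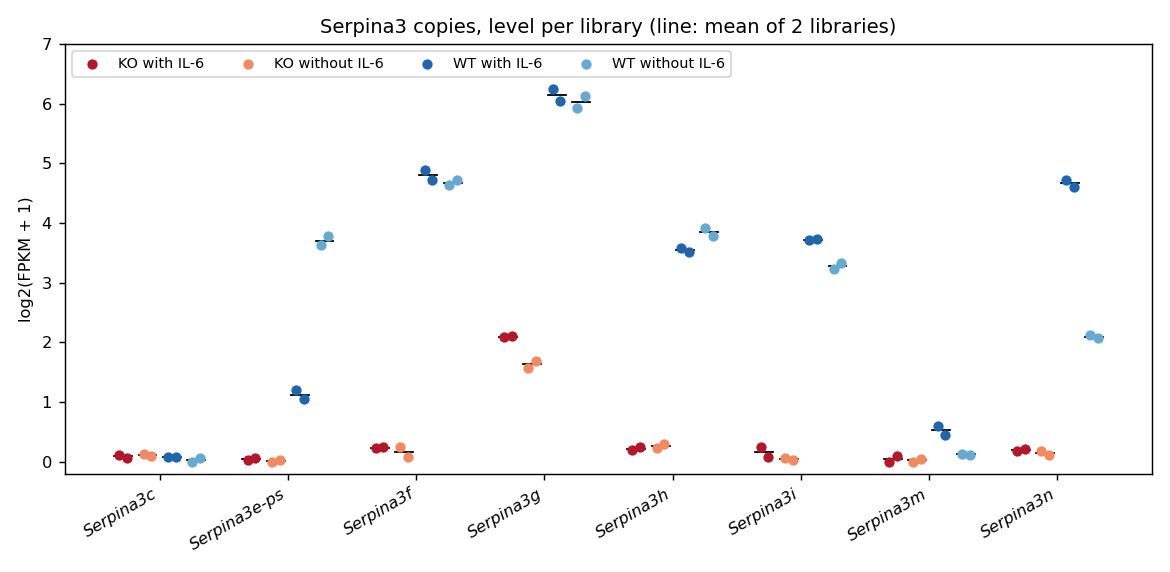
Level of each copy in each library as log2(FPKM + 1), genes in chromosomal order from left to right, with KO groups left of WT groups and the mean of 2 libraries as a line. Serpina3n is high in WT with IL-6, Serpina3e-ps in WT without it, and Serpina3g is the copy with values above 1 FPKM in all 4 KO libraries.

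In KO cells the IL-6 change could be followed in Serpina3g, and the other copies had too little RNA for it. They entered the fit through WT libraries and stood for 0 to 16 fragments in each KO library, so no p is given for them. Serpina3n was at 0.132 and 0.158 FPKM in KO with IL-6 and 0.128 and 0.0773 FPKM in KO without IL-6, or about 9.8 and 14 fragments against 8.8 and 5.9 (0.06 ± 0.08). Serpina3e-ps was at 0.0237 and 0.0406 FPKM with IL-6 and at 0 and 0.0231 FPKM without it, which is 1 and 2 fragments against 0 and 1 (0.03 ± 0.10). Serpina3g was at 3.25 and 3.3 FPKM in KO with IL-6 and at 1.97 and 2.23 FPKM in KO without IL-6, about 167 and 180 fragments against 79 and 129. Both libraries with IL-6 lay above both without it (0.47 ± 0.09), as they did for 19.6% of all genes, and the difference did not pass over all genes (limma, unadjusted p = 0.00108, adjusted p = 0.279). The differences of Serpina3f, Serpina3h and Serpina3i were 0.08 ± 0.09, -0.05 ± 0.08 and 0.11 ± 0.09. In the same comparison 0.0219% of all genes passed, which is 3 genes, all higher with IL-6, and 7.49% had an unadjusted p below 0.05.

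The difference between these IL-6 differences, KO minus WT, was -2.52 ± 0.11 for Serpina3n and 2.61 ± 0.14 for Serpina3e-ps. It was 0.35 ± 0.13 for Serpina3g, 0.25 ± 0.11 for Serpina3h, -0.05 ± 0.12 for Serpina3f and -0.34 ± 0.12 for Serpina3i. These values contain the WT contrast on which the copies were chosen and carry no p.

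**Figure D4:**
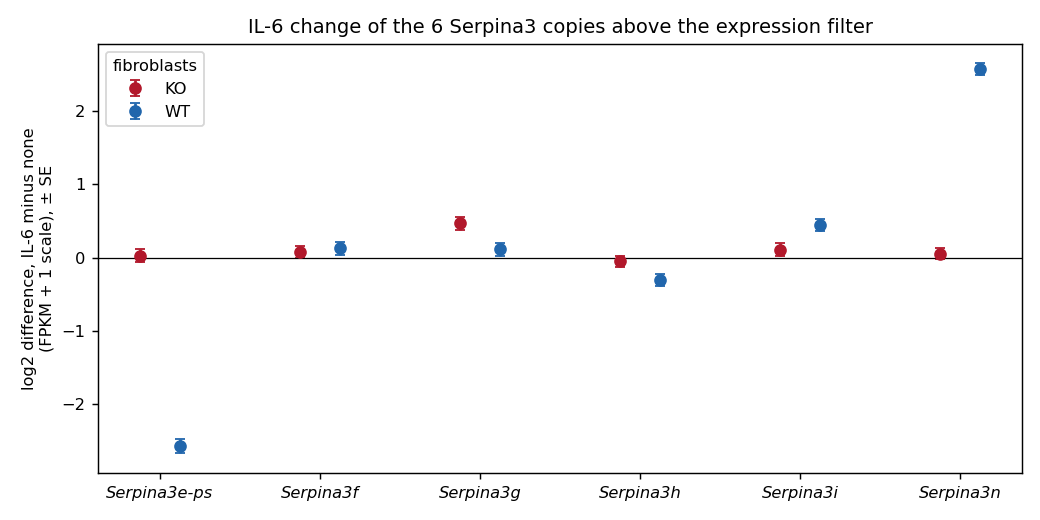
Log2 difference between libraries with and without IL-6 (FPKM + 1 scale, ± SE of the limma fit) for the 6 copies above the expression limit, KO left of WT for each gene. In WT Serpina3n is at 2.57 and Serpina3e-ps at -2.58, and in KO all 6 lie between -0.05 and 0.47.

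Every copy above the limit was lower in KO than in WT. Serpina3g is the copy that was above 1 FPKM in all 8 libraries, so it alone could be tested without having entered through WT. It was at 3.25 and 3.3 FPKM in KO and 74.8 and 65.2 FPKM in WT with IL-6 (-4.05 ± 0.09, limma adjusted p = 1.53e-08), and at 1.97 and 2.23 FPKM in KO and 60.2 and 68.9 FPKM in WT without IL-6 (-4.40 ± 0.09, adjusted p = 1.13e-08). KO means were 4.68% of WT with IL-6 and 3.25% without. A difference between these genotypes was common: 71.7% of all genes passed with IL-6 (34.8% lower in KO) and 71.0% without it (34.5% lower in KO). The median difference over all genes was 0.01 in each of these comparisons.

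The other copies above the limit reached 1 FPKM in WT libraries and in no KO library, so their lower KO level was bound to appear and is given as a description. Serpina3f was at 0.174 and 0.183 FPKM in KO and 28.6 and 25.4 FPKM in WT with IL-6, and at 0.182 and 0.0599 FPKM in KO and 23.9 and 25.3 FPKM in WT without it. Serpina3h was at 0.143 and 0.183 FPKM in KO and 11 and 10.4 FPKM in WT with IL-6, and at 0.179 and 0.23 FPKM in KO and 14.1 and 12.8 FPKM in WT without it. Serpina3i was at 0.189 and 0.0527 FPKM in KO and 12.1 and 12.3 FPKM in WT with IL-6, and at 0.0498 and 0.024 FPKM in KO and 8.33 and 9.1 FPKM in WT without it. In KO cells these 3 copies thus stayed within 2.0 to 16 fragments a library. KO libraries lay below WT libraries for all 6 copies in both conditions, as did 41.9% of all genes with IL-6 and 41.7% without. On the log2 scale the differences without IL-6 were -4.52 ± 0.09 for Serpina3f, -3.69 ± 0.10 for Serpina3e-ps, -3.58 ± 0.08 for Serpina3h, -3.23 ± 0.09 for Serpina3i and -1.95 ± 0.08 for Serpina3n. With IL-6 they were -4.57 ± 0.09 for Serpina3f, -4.47 ± 0.08 for Serpina3n, -3.56 ± 0.09 for Serpina3i, -3.33 ± 0.08 for Serpina3h and -1.08 ± 0.10 for Serpina3e-ps. These sizes depend on the added 1 FPKM, since KO levels lay far below it. With 0.1 FPKM added, the differences of Serpina3n were -6.64 with IL-6 and -4.07 without it, and those of Serpina3e-ps were -3.28 and -6.77. Under both, Serpina3n differed more with IL-6 and Serpina3e-ps more without it. With KO levels this low, that order restates the WT contrast on which the copies were chosen. Serpina3c went its own way at a very low level, with 0.0857 and 0.0419 FPKM in KO and 0.0624 and 0.0614 FPKM in WT with IL-6, and 0.0925 and 0.0716 FPKM in KO and 0 and 0.0453 FPKM in WT without it. Serpina3m was at 0 and 0.072 FPKM in KO with IL-6 and at 0 and 0.0328 FPKM in KO without it.

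Serpina3g made up 81.3 and 81.8% of the small KO sum with IL-6 and 75.7 and 81.1% without it. Markers of other cell types moved with the genotype as well. Of 4 epithelial markers, Cdh1, Krt8 and Krt18 were above 1 FPKM in KO libraries, where the list summed to 20.8 to 21.2 FPKM, against 1.15 to 1.69 FPKM in WT; Epcam was below 1 FPKM throughout. Of 3 astrocyte markers, Slc1a3 was at 2.73 to 3.31 FPKM in KO and 12 to 18.3 FPKM in WT, while Gfap was at most 0.179 FPKM and Aqp4 was listed at 0. Hepatocyte markers, from the main site of human SERPINA3, summed to 4.79 to 5.16 FPKM in KO and 2.06 to 2.95 FPKM in WT, with Alb at 0 in 7 of 8 libraries. Of that list, Ahsg was at 2.33 to 2.62 FPKM in KO and at 0 in every WT library. Apoa2 was at 1.91 to 2.48 FPKM in KO and 1.95 to 2.92 FPKM in WT. Macrophage markers came to 1.67 to 2.22 FPKM in KO and 2.27 to 3.07 FPKM in WT, nearly all of it Cd68, with Adgre1 at 0, and T-cell markers to at most 0.244 FPKM in KO and 0.0764 FPKM in WT. The part of these markers in the genotype difference of the cluster was not tested.

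Single transcripts showed which forms carried these levels. Serpina3n and Serpina3e-ps have 1 annotated transcript each. Of the 16 transcripts of the 8 copies, 12 reached 1 FPKM in some library, all of them in WT. Most Serpina3f RNA was Serpina3f-202, at 26.6 and 23.8 FPKM in WT with IL-6 and 23.6 and 24.1 FPKM in WT without it, whereas the shorter Serpina3f-203 was at 2.01 and 1.59 FPKM with IL-6 and 0.331 and 1.22 FPKM without. Serpina3g-201, the full form, was at 2.31 and 2.03 FPKM in KO and 53 and 45.8 FPKM in WT with IL-6, and at 1.02 and 1.8 FPKM in KO and 40 and 49.1 FPKM in WT without IL-6. The other Serpina3g transcripts end before the loop printed above; Serpina3g-202, the highest of them, was at 12.8 and 9.68 FPKM in WT with IL-6 and 11.7 and 13 FPKM in WT without it. Serpina3h-202, which holds the loop, was at 7.68 and 7.71 FPKM in WT with IL-6 and 10.3 and 7.95 FPKM in WT without it. Serpina3i-201 was at 8.69 and 7.62 FPKM with IL-6 and 5.83 and 5.72 FPKM without it, and Serpina3i-202, annotated with a retained intron, at 3.4 and 4.72 FPKM with IL-6 and 2.5 and 3.38 FPKM without it. The values of Serpina3i-202 nearly met, at 3.4 and 3.38 FPKM.

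In WT the 6 copies above the limit stood apart from the other Serpina genes nearby, while Serpina3c and Serpina3m stayed below 1 FPKM as those genes did. The 6 other Serpina3 genes, Serpina3a, Serpina3b, Serpina3d-ps, Serpina3j, Serpina3k and Serpina3l-ps, were at 0 to 0.0491 FPKM in every library, although they lie between and beside the copies. Among 20 Serpina genes outside the 8 copies, which include these 6 and the Serpina1 genes of alpha-1-antitrypsin, none reached 1 FPKM in 2 libraries. Serpina9 was at 0.824 and 1.21 FPKM in KO and 0.0423 and 0.0957 FPKM in WT with IL-6, and at 0.818 and 0.834 FPKM in KO and 0.181 and 0.129 FPKM in WT without IL-6. Serpina11 was also higher in KO, at 0.524 to 0.766 FPKM against 0 to 0.315 FPKM in WT, so these neighbours and the cluster sum differed between genotypes in opposite directions. In KO both lay above every copy but Serpina3g. Within 500 kb of the copies the genes Dicer1 and Clmn passed the limit, a pair looked up after values were seen. Dicer1, which encodes the nuclease that makes microRNAs, lies 273.4 kb beyond Serpina3n and was at 13.2 to 14.1 FPKM in KO and 13.3 to 14.1 FPKM in WT. Clmn, 348.8 kb beyond it, was higher in KO, at 4.81 to 5.46 FPKM against 2.66 to 3.13 FPKM in WT (0.71 with IL-6 and 0.59 without, limma adjusted p = 0.000151 and 0.000435).

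**Figure D5:**
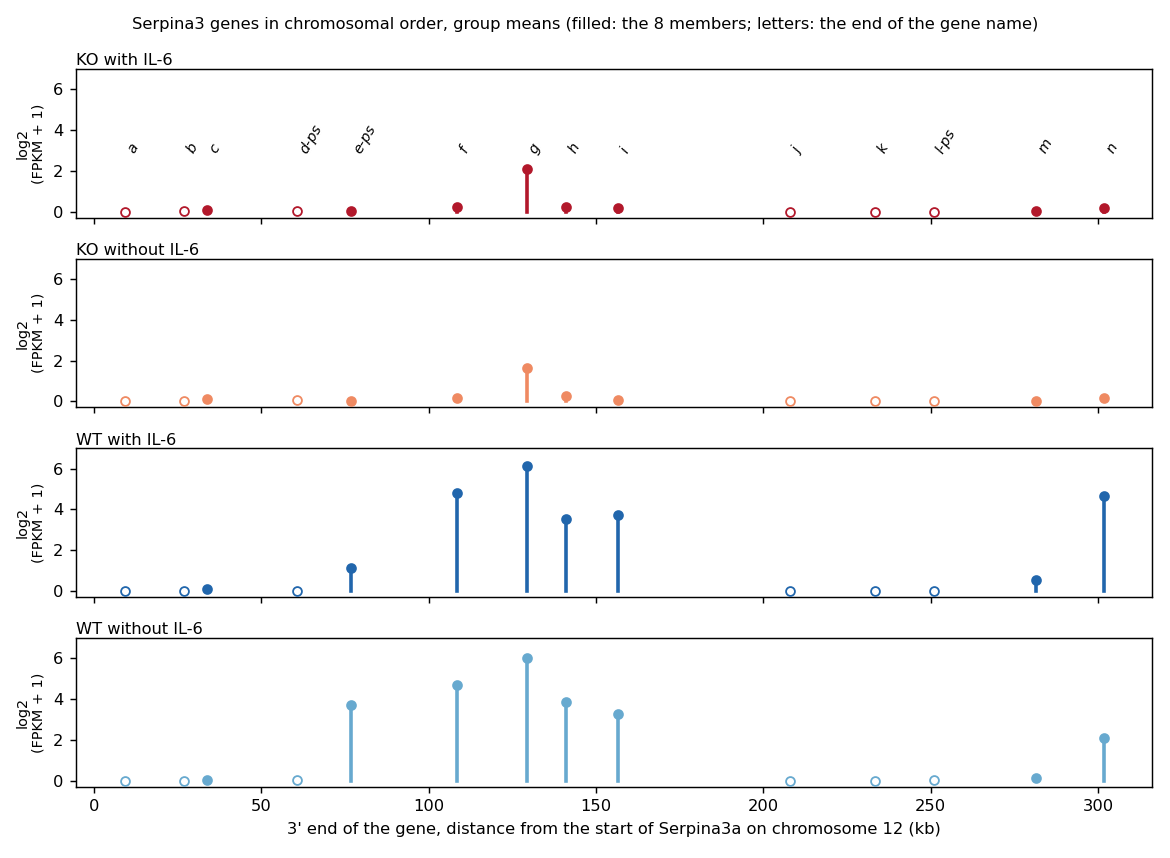
Mean level of all 14 Serpina3 genes in each group, as log2(FPKM + 1), against the position of the 3′ end of each gene in kb from the start of Serpina3a; filled points are the 8 copies described and open points the others. In WT the RNA comes from a block of Serpina3e-ps to Serpina3i and from Serpina3n, with near-silent genes between them, and in KO from Serpina3g.

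Upstream sequence was available for 5 of the 8 copies in RefSeq's promoter windows (GRCm38.p6), and the 250 bases before the start are printed for Serpina3n and for the 3 middle copies because they differed with IL-6 by unequal amounts. Capitals mark matches to TTCNNNGAA, a letter pattern of STAT factors, which IL-6 activates, or to TTGCNNAA, a pattern of C/EBP factors; both strands were searched, and a match on the other strand is in capitals as well.
Serpina3n: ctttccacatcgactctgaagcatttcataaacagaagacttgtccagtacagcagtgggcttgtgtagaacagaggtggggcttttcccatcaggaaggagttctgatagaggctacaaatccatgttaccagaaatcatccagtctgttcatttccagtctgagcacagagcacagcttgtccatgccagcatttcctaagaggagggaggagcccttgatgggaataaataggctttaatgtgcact
Serpina3g: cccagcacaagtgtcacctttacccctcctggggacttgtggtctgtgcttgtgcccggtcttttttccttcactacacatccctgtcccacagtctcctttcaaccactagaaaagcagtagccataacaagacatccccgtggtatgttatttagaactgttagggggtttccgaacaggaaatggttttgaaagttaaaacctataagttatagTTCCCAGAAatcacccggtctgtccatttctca
Serpina3f: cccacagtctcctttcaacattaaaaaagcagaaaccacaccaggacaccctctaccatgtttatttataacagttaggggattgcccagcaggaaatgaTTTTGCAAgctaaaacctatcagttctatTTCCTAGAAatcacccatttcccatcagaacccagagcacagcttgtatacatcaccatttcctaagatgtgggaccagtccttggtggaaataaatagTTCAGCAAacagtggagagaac
Serpina3i: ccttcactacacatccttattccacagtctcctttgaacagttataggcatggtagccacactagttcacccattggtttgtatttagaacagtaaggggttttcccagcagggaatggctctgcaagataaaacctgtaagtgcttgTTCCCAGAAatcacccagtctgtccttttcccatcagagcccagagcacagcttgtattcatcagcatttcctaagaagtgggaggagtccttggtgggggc
The windows lie at chr12:104406458-104406707 (Serpina3n), chr12:104235897-104236146 (Serpina3g), chr12:104214294-104214543 (Serpina3f) and chr12:104262872-104263121 (Serpina3i), all on the plus strand. The STAT pattern was found once in Serpina3g (first base at -33 from the start), once in Serpina3f (-121) and once in Serpina3i (-102). It was not found in the 300 bases searched of Serpina3n or of Serpina3c, and only exact matches were counted. Serpina3n and Serpina3c hold ttaccagaa, followed by a stretch much like the one that follows TTCCCAGAA in Serpina3g and Serpina3i. The C/EBP pattern was found at 2 places in Serpina3f (-150 and -22). A second Serpina3f window, with a later start, held the same strings at -210 (STAT) and at -239 and -111 (C/EBP). All positions count from the RefSeq start, which for Serpina3g lies before the GENCODE start (chr12:104236245), so they are not aligned between genes. Of 32851 RefSeq windows of the same length, 8.3% held the STAT pattern and 10.8% the C/EBP pattern. The palindromic pattern of the glucocorticoid receptor was in 3 windows, none of them of these genes. The Serpina3n window was 93.5% identical to that of Serpina3c, a gene with almost no RNA here, and 77.6% to that of Serpina3g. A match is a string of letters, and no binding was measured.

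Genes whose level over the 8 libraries was most like that of Serpina3n were, by Pearson correlation among 9917 genes of at least 5 FPKM on average, Steap1, a metalloreductase gene (r = 0.9984), Slc41a1, Oplah, Nfil3 and Sod2, the mitochondrial superoxide dismutase gene (0.9970). Steap1 was at 16 and 15.1 FPKM in KO with IL-6, 13.9 and 15.4 in KO without IL-6, 91.7 and 92 in WT with IL-6, and 34.5 and 33.4 in WT without IL-6. For Serpina3e-ps they were Morn2 (r = 0.9950), Sema3a, Gsto1, Asph and Cthrc1. Sema3a, a guidance-signal gene, was at 11.6 and 12.3 FPKM in KO with IL-6, 11.6 and 12 in KO without IL-6, 17.9 and 16.6 in WT with IL-6, and 30.3 and 30.4 in WT without IL-6. The 8 points of each correlation fall into 4 groups, so these values mostly compare group means.

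Other genes of the IL-6 response gave a setting for the copies. Of 19 genes of IL-6 signalling, 14 rose and 1 fell with IL-6 in WT (median 0.36, against 0.00 over all genes), and 1 rose in KO (median 0.06), Cebpd, which encodes a C/EBP factor (0.69 ± 0.06, limma adjusted p = 0.0401). Among all 13693 genes tested, 1136 rose and 1014 fell with IL-6 in WT, and 3 rose in KO. Osmr and Socs3, a receptor and a feedback inhibitor of the pathway, rose in WT by 1.17 ± 0.05 and 1.35 ± 0.06 (adjusted p = 2.38e-05 and 2.87e-05). In KO against WT, 1 of the 19 was higher and 15 were lower with IL-6, and 2 were higher and 14 lower without it. Over all 13693 genes, 5046 were higher and 4767 (34.8%) lower with IL-6, and 4991 were higher and 4725 (34.5%) lower without it. Socs1, one of the 19, entered only through its WT level. Of 20 acute-phase genes, the class to which human SERPINA3 belongs, 7 were tested. In WT 6 of these rose with IL-6 (median 1.88), among them Saa3, serum amyloid A (2.09 ± 0.10, adjusted p = 3.31e-05), and Lcn2, lipocalin 2 (1.88 ± 0.12, adjusted p = 0.000107). Orm1, counted among the 6 and in the median, entered only through its level in WT with IL-6, so its direction was fixed. In KO none of the 7 passed in limma. Saa3 and C3 had an unadjusted p below 0.05, as did 7.49% of all genes. Lcn2 did as well, but it was below 1 FPKM in every KO library and nothing is read from it. In KO against WT 6 of the 7 were lower and 1, the haptoglobin gene Hp, was higher, in each condition. Lcn2, Kng1 and Orm1 were below 1 FPKM in every KO library and entered only through WT, so their direction was fixed, and 34.8% of all genes were lower with IL-6 and 34.5% without. Saa3 was at 7.81 and 8.8 FPKM in KO and 629 and 560 FPKM in WT with IL-6, and at 5.91 and 4.83 FPKM in KO and 143 and 134 FPKM in WT without IL-6, so it too was higher in WT with IL-6 and low in KO.

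Serpins outside the cluster behaved in mixed ways. Of 20 serpin genes outside the Serpina group, 13 were tested. With IL-6 4 rose and 3 fell in WT, beside 1136 and 1014 of all 13693 genes. None passed in KO in limma, where 3 of all genes did. Serping1 and Serpinb6a had an unadjusted p below 0.05 there, as did 7.49% of all genes. Serping1, the inhibitor of complement C1, rose by 1.17 ± 0.06 in WT (adjusted p = 4.18e-05). Between genotypes 7 were higher and 5 lower in KO in each condition. Of all genes, 5046 were higher and 4767 (34.8%) lower in KO with IL-6, and 4991 were higher and 4725 (34.5%) lower without it. The direction was fixed by the limit for Serpinb6b and Serpind1, above 1 FPKM only in KO, and for Serpine2, above it only in WT. Of 12 protease genes listed as possible targets of serpins, Ctsl, the lysosomal cathepsin L, was the one tested, at 427 to 439 FPKM in KO and 322 to 403 FPKM in WT. Cathepsin G (Ctsg) was listed at 0 in all 8 libraries and granzyme B (Gzmb) was at 0 to 0.0397 FPKM.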

How the data were processed

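The authors deposited FPKM per transcript; the submitters' processing notes name HISAT2, Cufflinks 2.2.1 and build GRCm38.p6. Per the labels' protocols, RNA came from RNeasy columns and libraries from the TruSeq stranded mRNA kit; whether the strand was used in counting is not given in the sources used here. Transcript FPKM were summed to 55358 genes by the name before the last hyphen, and the 13693 genes that reached 1 FPKM in 2 or more of the 8 libraries were tested. A limma model (version 3.58.1, R 4.3.3) of log2(FPKM + 1) with the 4 group means was fitted to the 8 libraries, leaving 4 residual degrees of freedom. The moderation of variances followed intensity, and p-values were adjusted by Benjamini-Hochberg over the genes tested; a call is an adjusted p below 0.05. The procedure was tested on simulated data. Depth was fitted so that low values become whole fragments, and 94.0 to 95.6% came within 0.1 of a whole number; fragment numbers are therefore estimates, and precision is limited by 2 libraries a group. No libraries held identical values.

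The copies, lists and tests were chosen with earlier results of these data known. Named genes are all 8 copies, their transcripts at 1 FPKM in any library, Arid5a, the 5 most correlated genes outside the cluster for Serpina3n and Serpina3e-ps, and up to 4 genes with the smallest p of each list, of which some are left out; C3, Socs1, Orm1, some serpins, the neighbours and the marker genes are named for their counts or their place at the limit, after values were seen. Transcript sequences came from GENCODE M21, promoters from RefSeq, and alignments from Biopython 1.88. Tables were handled in pandas 2.3.3 and numpy 2.4.6, and plots made in matplotlib 3.10.9 (Python 3.11.15). Alternatives were other pseudocounts, filters, quantile normalization, no trend, the replicate number as a block, only the groups compared, and leaving out each library; scaling to equal totals or by median ratios was added after seeing the data.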

Additional observations from a re-analysis of the deposited data

Results flagged for a closer look

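Serpina3e-ps was flagged because its FPKM order with IL-6 differed between the 2 genotypes. Both KO libraries with IL-6 lay above both without it, and both WT libraries with IL-6 lay below both without it. The difference between the IL-6 changes was 2.61 on the log2(FPKM + 1) scale (KO minus WT) and was not tested, since the copies were chosen on the WT contrast. The KO values stand for 1 and 2 fragments with IL-6 and 0 and 1 without, so the KO groups share a count of 1. No direction can be read in KO (0.03 ± 0.10), and the 2.61 reflects the WT change (-2.58 ± 0.10).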

How the results depend on the processing

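With a pseudocount of 0.1 in place of 1 the log2 difference of the cluster sum was 0.57 for IL-6 in KO, -5.15 for KO against WT with IL-6 and -5.51 without it, and with 5 it was 0.23, -4.06 and -4.10. With each library scaled to equal totals, it was -4.78 for KO against WT with IL-6. For IL-6 in WT (0.20) it was 0.20 with either pseudocount, 0.16 with quantile normalization and 0.15 with equal totals. Leaving out each library in turn gave 0.42 to 0.48 for IL-6 in KO, 0.12 to 0.28 for IL-6 in WT, -4.95 to -4.79 for KO against WT with IL-6 and -5.18 to -5.06 without it. The 3 genes called for IL-6 in KO became 7 with no filter, 5 with a filter of 5 FPKM, and 0 to 6 with a library left out, with 0 without the second and 1 without the first KO library without IL-6, and 6 without either WT library without IL-6. The 2150 genes called for IL-6 in WT became 1430 with only the 2 groups compared and 1143 to 1777 with a library left out, with 1158 and 1143 without the first and the second WT library with IL-6, and 1308 and 1187 without the first and the second one without IL-6. The cause was not tested.

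The labels name no link between same-numbered libraries beyond the number. Their deviations from the group means correlated at -0.10 to 0.05 over 6 pairs of groups, none above 0.1. This cannot show whether they were handled together. With the replicate number as a block, 2 genes were called for IL-6 in KO, 1696 for IL-6 in WT, 9685 for KO against WT with IL-6 and 9566 without it. Serpina3g stayed past the threshold for KO against WT, and short of it for IL-6 in KO, in every alternative run for it, with adjusted p for IL-6 in KO of 0.21 to 0.66. With a pseudocount of 0.1, KO against WT was larger for the 5 copies with low KO levels, in the same direction. Depth limits the KO values of all copies but Serpina3g, and no copy has more than 2 libraries a group.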
